A study of Mus musculus with 22 samples.

Results

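Insulin-like growth factor (IGF) signalling was followed through 9 genes: the ligands Igf1 and Igf2, the receptor Igf1r, and the binding proteins Igfbp2, Igfbp3, Igfbp4, Igfbp5, Igfbp6 and Igfbp7. They were chosen by symbol, with earlier results of these data known, from a table of 56748 gene rows, where each of the 9 was found once. The shares of all genes given beside their counts are background and no test of the family. All 9 passed the filter on low counts that left 20026 genes for testing. One of the 9, Igfbp7, differed between groups. It was higher after lipopolysaccharide (LPS) in both sets of mice that received no cannabidiol (CBD), and under LPS it was lower with CBD than without. The other 8 passed the test in none of 12 comparisons, where 0% to 3.52% of all genes did.

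The brains came from 22 male C57BL/6J mice in a model of Gulf War illness. At 10 weeks of age, mice of the 4 exposed groups were injected into the peritoneum for 10 days with 0.7 mg/kg pyridostigmine bromide, a cholinesterase inhibitor, and 200 mg/kg permethrin, a pyrethroid insecticide. Mice of the 2 control groups received vehicle. At 17.5 months of age they received 30 mg/kg CBD, a plant cannabinoid that does not intoxicate, daily for 28 days and then every 2 days for 2 weeks, or its vehicle. They were then injected once with Escherichia coli LPS, a bacterial cell-wall product, at 0.33 mg/kg or with PBS, and whole brains were taken 24 h later. The groups were CtrlVeh (control, vehicle, PBS, n = 3), CtrlVehLPS (control, vehicle, LPS, n = 3), GWVeh (exposed, vehicle, PBS, n = 4), GWVehLPS (exposed, vehicle, LPS, n = 4), GWCBD30 (exposed, CBD, PBS, n = 4) and GWCBD30LPS (exposed, CBD, LPS, n = 4). CBD was given to exposed mice only, so its comparisons are within exposed mice. Each library is 1 whole brain.

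IGF1 and IGF2 are small secreted hormones that act through the receptor tyrosine kinase IGF1R, which signals through insulin receptor substrates and the PI3K and AKT kinases to growth and survival. The binding proteins hold the ligands outside cells with high affinity, and can lengthen their life, keep them from the receptor or release them when cut by proteases. IGFBP7 is the exception of the family: it binds IGFs only weakly, binds insulin as well, and is known as a matrix protein of blood vessels. In adult brain much IGF1 comes from the circulation, with local supply from neurons and glia, and Igf2 is made mainly by the choroid plexus and meninges.

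The promoter of Igfbp7 is shown because it belongs to the 1 gene of the 9 whose level differed. The window runs from 250 bases before to 50 bases after the RefSeq start, on the minus strand of GRCm38.p6 at chr5:77407996-77408295, and capitals mark each match to the GC box GGGCGG on either strand.

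Igfbp7 promoter: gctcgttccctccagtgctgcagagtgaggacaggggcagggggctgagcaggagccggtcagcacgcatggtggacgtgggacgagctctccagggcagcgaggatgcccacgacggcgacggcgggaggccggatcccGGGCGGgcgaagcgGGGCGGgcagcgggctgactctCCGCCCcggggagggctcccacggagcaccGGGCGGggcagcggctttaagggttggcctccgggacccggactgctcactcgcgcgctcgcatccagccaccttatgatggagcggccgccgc

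It held 4 GC boxes, the letters that Sp1-type factors bind, and 73.3% of its bases were G or C. It held 0 matches to the TATA box TATAAA, to the interferon response element core (GAAA, NN, GAAA) and to the NF-kB site, each searched on both strands. Among 32851 mouse promoter windows of the same length, 35.7% held a GC box, 13.6% a TATA box, 3.44% the interferon core and 8.46% an NF-kB site. A match is a run of letters and not a shown site. All 9 genes had a RefSeq window, 13 windows in all. The first Igfbp2 window held 3 GC boxes and the Igf1r window 2. Of the 4 Igf2 windows, 1 held 2 GC boxes and 1 held 1 GC box with 1 interferon core, and the other 2 held no match. The Igfbp5 window held 2 NF-kB matches, and the windows of Igfbp4 and Igfbp6 held 1 TATA box each.

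Positions are those of GENCODE M21 on GRCm38. Igf1 (ENSMUSG00000020053) spans chr10:87858265-87937042 on the plus strand and Igf2 (ENSMUSG00000048583) chr7:142650766-142666816 on the minus strand. Igf1r (ENSMUSG00000005533) spans chr7:67952827-68233668 on the plus strand. Igfbp2 (ENSMUSG00000039323, chr1:72824503-72852474, plus) and Igfbp5 (ENSMUSG00000026185, chr1:72857932-72874884, minus) are neighbours that point at each other, with 5457 bp between their ends. Igfbp3 (ENSMUSG00000020427) lies at chr11:7206086-7213923 on the minus strand and Igfbp4 (ENSMUSG00000017493) at chr11:99041244-99054392 on the plus strand. Igfbp6 (ENSMUSG00000023046) lies at chr15:102144362-102149511 on the plus strand and Igfbp7 (ENSMUSG00000036256) at chr5:77349240-77408041 on the minus strand.

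Exons overlapped another gene in 2 of them, and the strand setting of the counting is not given in the sources used here. Of the exonic bases of Igf2, 62.8% (3596 bp) are shared on the same strand with the gene model Gm49394, which had 0 counts in every library, and 1.71% with the antisense Igf2os. The level of Igf2 is therefore uncertain. Igfbp7 shares 85 bp, 7.03% of its exonic bases, with the opposite-strand gene Polr2b.

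Each library held between 17.2 and 31.2 M counts (median 21.6 M). A floor of 3 counts was worth 0.0975 to 0.176 CPM, the counts per M counts of a library. All 9 genes were far above that floor in every library. The lowest count was 25, for Igf2, against 137 for Igfbp7 and 3218 for Igfbp5. The labels name the libraries as separate mice and give no cages or batches. Markers of neurons, astrocytes, oligodendrocytes and microglia were all detected, which does not show that each brain was taken whole. CtrlVehLPS replicate 1 stood apart. Its summed cerebellar marker level was 152 CPM against 739 or more in the other libraries, and its pancreatic marker sum was 292.5 CPM against at most 4.61. That library held the highest Igf1, Igfbp4 and Igfbp6 values of all 22 and the lowest Igf2 value. The range of the differences is therefore also given without it in the comparisons that use it. The group means keep it.

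Among the genes, binding proteins were far more abundant than ligands. Levels between genes are compared here as CPM per kb of exon, averaged over all 22 libraries. Igfbp5, the most conserved binding protein and one that binds matrix and hydroxyapatite, was highest at 33.7 CPM per kb. Igfbp2, a product of astrocytes and choroid plexus, followed at 18.4 and Igfbp6, which prefers IGF2, at 17.7. Igfbp4, the substrate of the protease PAPP-A, stood at 12.5 and Igfbp7 at 10.6. The receptor Igf1r stood at 4.64 and Igfbp3, the main IGF carrier of serum, at 3.37. The ligands were lowest, with Igf1 at 0.807 and Igf2 at 0.403. Summed over the 6 binding proteins, the length-scaled level was 88.7 ± 7.21 (SD, n = 4) in GWCBD30, the lowest group, and 105.5 ± 4.52 (n = 4) in GWVehLPS, the highest. The sum of both ligands ran from 1.11 ± 0.187 (n = 4) in GWVehLPS to 1.30 ± 0.0845 (n = 3) in CtrlVehLPS.

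**Figure D1:**
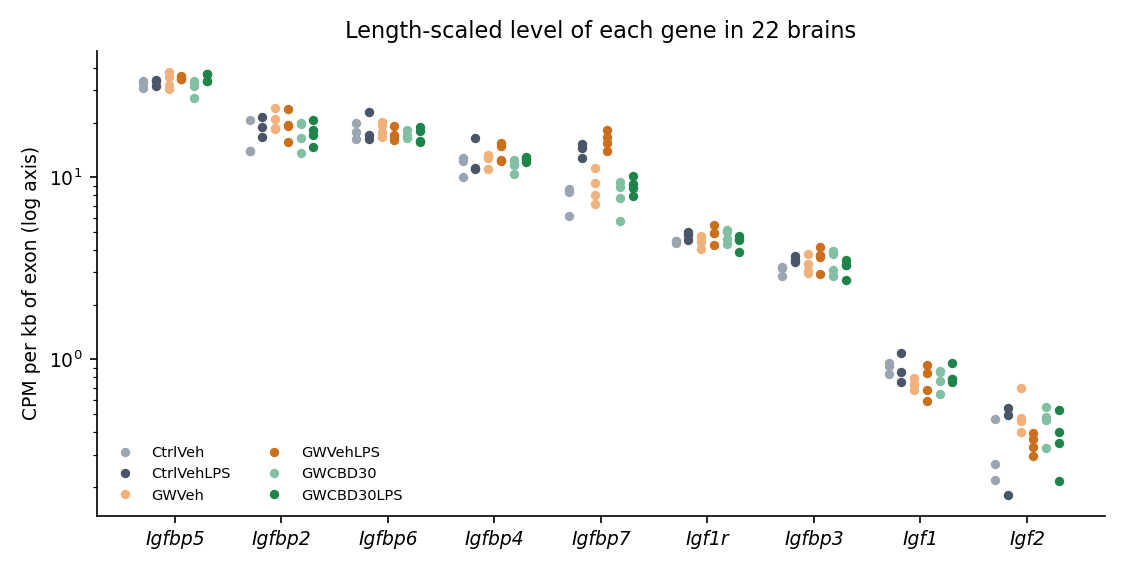
Level of each of the 9 genes in CPM per kb of exon (log axis), 1 point per library, coloured by group, with genes in order of their mean. Igfbp5 is highest at a mean of 33.7 and Igf2 lowest at 0.403, and Igfbp7 is the gene whose LPS groups without CBD (dark grey and dark orange) stand above the rest.

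The genes also differed in how far they varied. The ratio of the highest to the lowest CPM over the 22 libraries was 3.83 for Igf2 and 3.16 for Igfbp7, and lay between 1.40 and 1.84 for the other 7. Igf2 rested on 25 to 79 counts a library, where counting alone gives a coefficient of variation of 20% to 11.3%. Igfbp7 rested on 137 to 626 counts, where it gives 8.54% to 4.00%. Igfbp5 was steady, with a fitted biological coefficient of variation of 7.08% against a median of 11.4% over all genes.

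Igfbp7 was about 1.8 times as high after LPS in controls and in exposed mice on vehicle. Its CPM was 10.5, 7.38 and 10.1 in the CtrlVeh libraries and 15.4, 17.6 and 18.4 in the CtrlVehLPS libraries. In GWVeh it was 13.7, 11.3, 9.66 and 8.57, and in GWVehLPS it was 21.9, 16.9, 18.6 and 20.1. Every LPS library of both arms was above every PBS library of both arms. In the CBD arm, GWCBD30 libraries had 11.3, 10.7, 9.31 and 6.93 and GWCBD30LPS libraries 12.3, 9.58, 10.5 and 11.1, and these ranges overlapped. The group means were 9.31 ± 1.69 CPM (SD, n = 3) in CtrlVeh, 17.1 ± 1.55 (n = 3) in CtrlVehLPS, 10.8 ± 2.22 (n = 4) in GWVeh, 19.4 ± 2.11 (n = 4) in GWVehLPS, 9.58 ± 1.95 (n = 4) in GWCBD30 and 10.9 ± 1.14 (n = 4) in GWCBD30LPS. Ordered by mean, the only neighbouring groups whose ranges did not meet were CtrlVehLPS and GWCBD30LPS. GWVehLPS and CtrlVehLPS overlapped at the top, as did the remaining neighbours below.

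**Figure D2:**
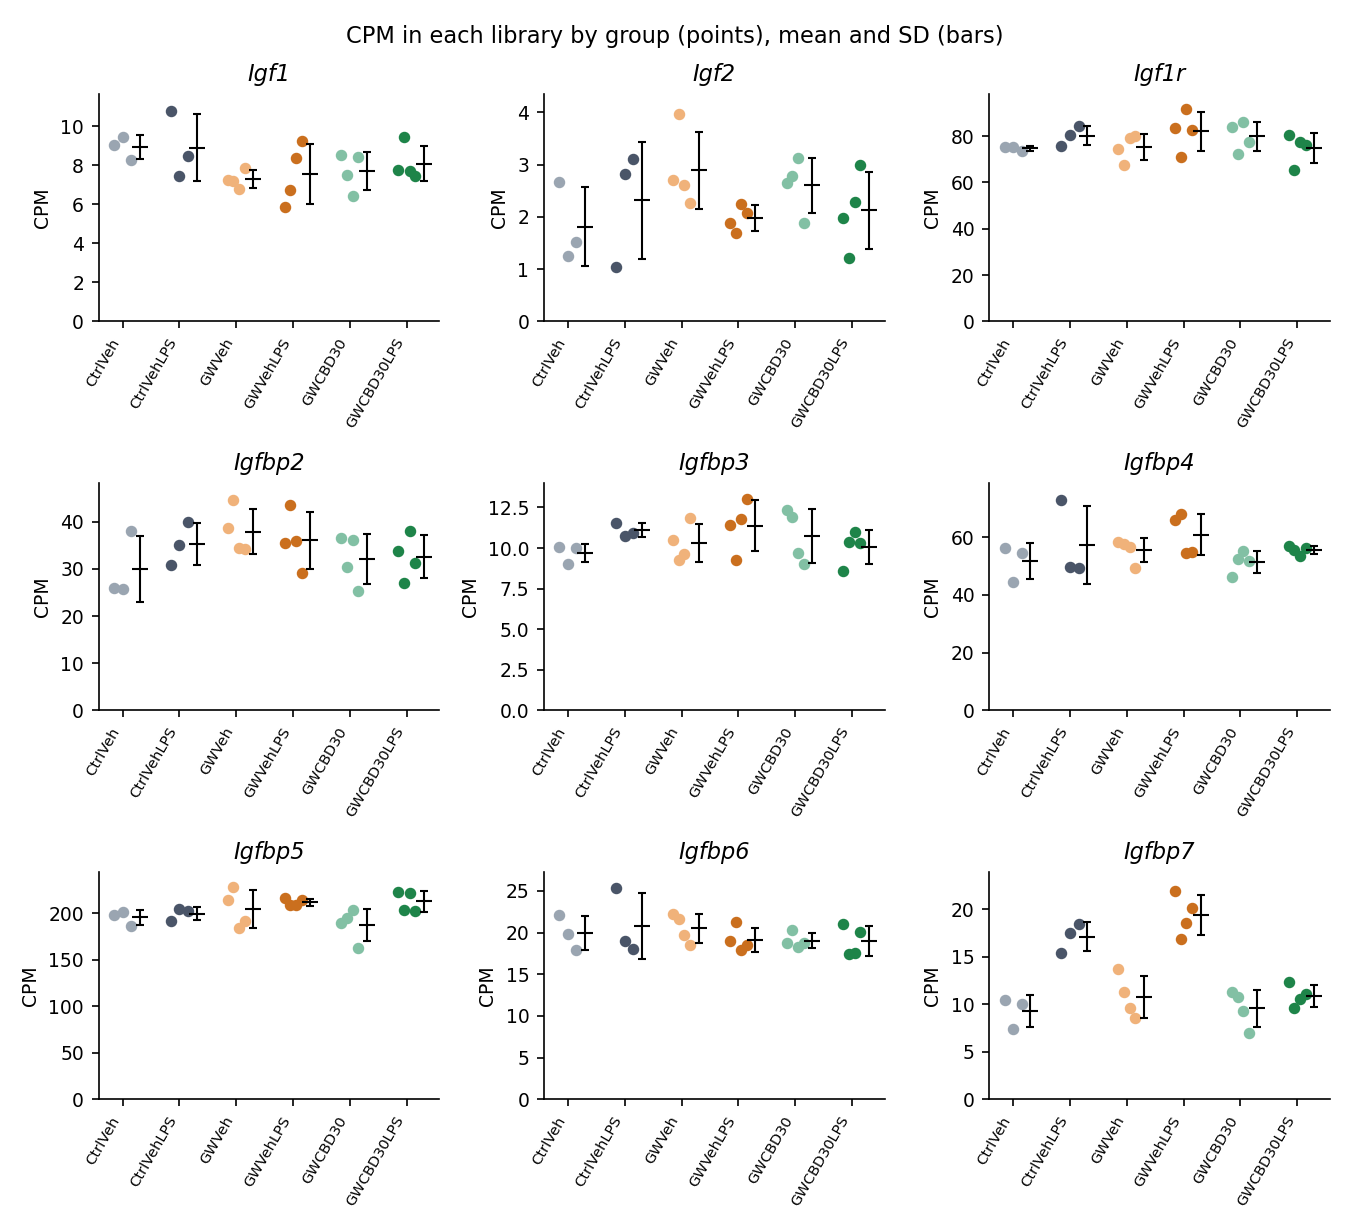
CPM of the 9 genes in each of the 22 libraries by group (points), with the group mean and SD (bars); each panel has its own axis from 0. In the Igfbp7 panel the LPS libraries without CBD lie between 15.4 and 21.9 and all other libraries between 6.93 and 13.7. In the other panels, groups next to each other in the order of means overlap, and some farther apart do not.

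Which of the genes answered LPS was asked in each arm. In controls, 1 of the 9 genes passed the test (edgeR's quasi-likelihood test, adjusted p under 0.05), where 0.494% of all genes tested did. That gene was Igfbp7, at 0.88 ± 0.16 on the log2 scale (± SE throughout, adjusted p = 0.00729), a 1.84-fold difference with a 95% interval of 0.54 to 1.21 on the log2 scale. Without CtrlVehLPS replicate 1 it was 0.95 ± 0.18 (adjusted p = 0.00761). The call was lost without CtrlVeh replicate 2, the lowest library (0.73, adjusted p = 0.0881), and with olfactory bulb and cerebellar marker scores as covariates (1.09, adjusted p = 0.0553). Over the 18 alternatives its adjusted p ran from 1.93e-07 to 0.0881. The other 8 genes lay between 0.01 (Igf1) and 0.34 (Igf2), and the median of the 9 was 0.16 against 0.00 over all genes. Without CtrlVehLPS replicate 1 those 8 lay between -0.16 (Igf1) and 0.73 (Igf2), none was called, and the median of the 9 was 0.14. Igf1 (0.01 to -0.16), Igfbp4 (0.16 to -0.06) and Igfbp6 (0.07 to -0.10) changed sign without it. Igf2 went from 0.34 to 0.73 ± 0.33 (adjusted p = 0.379).

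In exposed mice on vehicle, Igfbp7 was again the 1 gene of 9 called, where 0.939% of all genes were. The log2 fold change was 0.85 ± 0.14 (adjusted p = 0.000471), a 1.80-fold difference with an interval of 0.56 to 1.13. Its call was lost with endothelial and pericyte marker scores as covariates, an alternative chosen after seeing the data (0.65, adjusted p = 0.199, against 1.8e-10 to 0.199 over 21 alternatives). Over all genes, 50 were called with these covariates, against 188 in the main fit. The other 8 lay between -0.55 (Igf2) and 0.14 (Igfbp3). The LPS difference of Igfbp7 in exposed mice minus that in controls was -0.03 ± 0.21 with an interval of -0.47 to 0.41 (adjusted p = 0.985), and -0.10 ± 0.22 without CtrlVehLPS replicate 1 (adjusted p = 0.95, range over 26 alternatives 0.848 to 1).

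In exposed mice on CBD, 0 of the 9 genes were called, where 0.00499% of all genes were (1 gene, with 1647 at an unadjusted p under 0.05, 35 called by DESeq2 and 87 by limma voom). Igfbp7 stood at 0.18 ± 0.14 with an interval of -0.11 to 0.47 (adjusted p = 0.769). The other 8 lay between -0.30 (Igf2) and 0.18 (Igfbp5). Igfbp5 at 0.18 ± 0.07 had the smallest p of the 9 here (unadjusted 0.00883, adjusted 0.45). Its CPM was 190.0, 194.5, 203.3 and 162.9 in GWCBD30 and 223.1, 203.5, 222.4 and 202.8 in GWCBD30LPS, so the groups met at about 203 CPM.

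Averaged over the 3 arms, Igfbp7 was the 1 gene of 9 called, where 3.52% of all genes were, at 0.64 ± 0.09 (adjusted p = 1.74e-05), and at 0.66 ± 0.09 (adjusted p = 8.21e-06) without CtrlVehLPS replicate 1. Over its 33 alternatives the adjusted p ran from 4.48e-16 to 0.00296. Igfbp4 at 0.14 ± 0.06 (adjusted p = 0.252) and Igfbp5 at 0.09 ± 0.04 (adjusted p = 0.231) were under 0.05 before adjustment only. Without CtrlVehLPS replicate 1, Igfbp4 stood at 0.06 (adjusted p = 0.511) and Igfbp5 at 0.10 (adjusted p = 0.166). Igf1 changed sign without that library (0.04 to -0.02). The 8 genes other than Igfbp7 then lay between -0.07 (Igfbp6) and 0.10 (Igfbp5), against -0.17 (Igf2) and 0.14 (Igfbp4) with it. Over its 33 alternatives the adjusted p of Igfbp4 ran from 0.0621 to 0.697.

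Whether CBD changed the genes was asked in exposed mice. Under LPS, Igfbp7 was lower with CBD and was the 1 gene of 9 called, where 0.24% of all genes were. All 4 GWCBD30LPS libraries (9.58 to 12.3 CPM) lay below all 4 GWVehLPS libraries (16.9 to 21.9 CPM). The log2 fold change was -0.83 ± 0.14 (adjusted p = 0.00137), a ratio of 0.562 with an interval of -1.11 to -0.55 on the log2 scale. The call was lost with endothelial and pericyte scores as covariates (-0.68, adjusted p = 0.144, against 1.38e-09 to 0.144 over 21 alternatives). Over all genes, 27 were called with these covariates, against 48 in the main fit. The other 8 genes lay between -0.18 (Igfbp3) and 0.11 (Igf1).

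Without LPS, 0 of the 9 genes differed between CBD and vehicle, where 0% of all genes were called (1288 at an unadjusted p under 0.05, and 0 by DESeq2 and by limma voom). Igfbp7 was at -0.17 ± 0.14 with an interval of -0.46 to 0.13 (adjusted p = 0.834), and the other 8 lay between -0.24 (Igfbp2) and 0.09 (Igf1r). The test of whether the LPS difference of Igfbp7 itself differed between CBD and vehicle gave -0.66 ± 0.20 with an interval of -1.07 to -0.26. Its unadjusted p was 0.00223 and its adjusted p 0.579, and 0 of the 9 genes passed where 0.0449% of all genes did. A smaller LPS response of Igfbp7 under CBD was thus not called across the genes tested, although the levels under LPS differed. The same value was not called in any of 29 alternatives (adjusted p 0.0539 to 0.889).

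Averaged over LPS states, the CBD difference of Igfbp7 was -0.50 ± 0.10 (unadjusted p 2.02e-05, adjusted p = 0.0673), just short of the threshold. No gene of the 9 was called, where 0% of all genes were (1673 at an unadjusted p under 0.05, 27 called by DESeq2 and 25 by limma voom). Igfbp7 was called by both of those tools, with adjusted p = 0.0031 and adjusted p = 0.0216, and over 29 alternatives its adjusted p ran from 1.06e-05 to 0.241. The CBD comparisons under LPS and the LPS comparison in exposed vehicle mice share the GWVehLPS libraries.

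**Figure D3:**
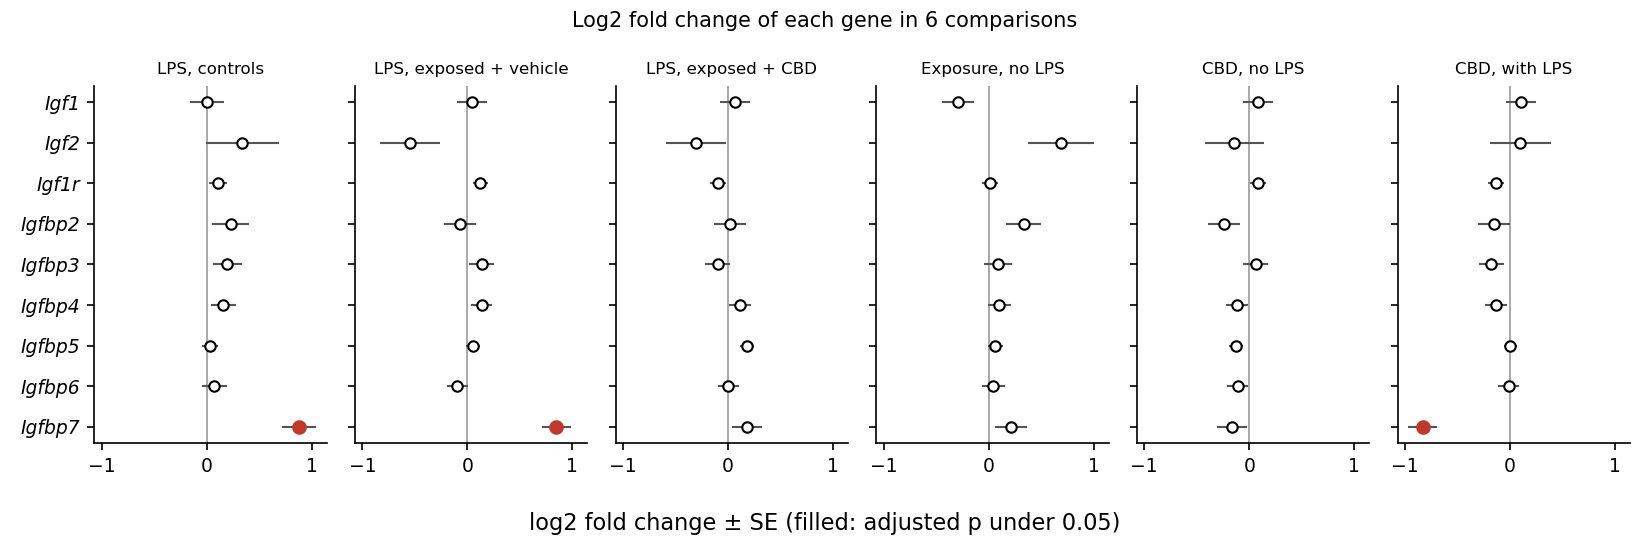
Log2 fold change with its SE for each of the 9 genes (rows) in 6 comparisons (panels) from 1 edgeR fit of all 22 libraries; filled points passed an adjusted p of 0.05. Igfbp7 is filled at 0.88 and 0.85 for LPS and at -0.83 for CBD under LPS, and no other gene is filled.

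The exposure, given at 10 weeks of age, was compared with control in the vehicle mice. Without LPS, 0 of the 9 genes were called, where 0% of all genes were (1762 at an unadjusted p under 0.05, 9 called by DESeq2 and 176 by limma voom). Under LPS 0 of the 9 were called, where 0.00499% of all genes were, and averaged over LPS states 0 of the 9 were, where 0.03% were. Igfbp7 was at 0.21 ± 0.16 without LPS, 0.18 ± 0.15 with it and 0.20 ± 0.11 on average, the last with an interval of -0.02 to 0.42. Without CtrlVehLPS replicate 1 it was at 0.11 ± 0.16 with LPS and 0.16 ± 0.11 on average. None of the 9 was called without that library. Under LPS the other 8 then lay between -0.58 (Igf2) and 0.30 (Igfbp4), against -0.26 (Igf1) and 0.09 (Igfbp5) with it, and Igf1r, Igfbp2 and Igfbp6 changed sign. On average those 8 lay between -0.19 (Igf1) and 0.20 (Igfbp4, adjusted p = 0.665), against -0.28 (Igf1) and 0.25 (Igf2) with it. Igfbp6 changed sign there too. No gene of the 9 had an exposure by LPS difference past the threshold, where 0% of all genes had one (1688 at an unadjusted p under 0.05, 10 called by DESeq2 and 0 by limma voom). None passed without CtrlVehLPS replicate 1 either. The 8 genes other than Igfbp7 then lay between -1.27 (Igf2, adjusted p = 0.728) and 0.21 (Igf1), against -0.88 (Igf2) and 0.04 (Igf1) with it. Igf1r, Igfbp4, Igfbp5 and Igfbp6 changed sign.

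Of the 9 genes, the ligands had the lowest and highest log2 differences between exposed and control mice without LPS, and neither was called. Igf1 was 9.05, 9.45 and 8.27 CPM in CtrlVeh and 7.25, 7.18, 6.75 and 7.87 in GWVeh. These groups did not overlap, at a log2 difference of -0.29 ± 0.15 (adjusted p = 0.583). Small groups can separate by chance, and how often they did so over all genes was not counted. Under LPS Igf1 was 10.8, 7.43 and 8.49 CPM in CtrlVehLPS and 5.84, 6.73, 8.37 and 9.23 in GWVehLPS, which overlapped. The average over LPS states was -0.28 ± 0.11 (unadjusted p 0.0149, adjusted p = 0.605), and without CtrlVehLPS replicate 1 it was -0.19 (adjusted p = 0.815, range over 26 alternatives 0.284 to 1). In the CBD groups, Igf1 averaged 7.71 ± 0.971 (n = 4) in GWCBD30 and 8.07 ± 0.914 (n = 4) in GWCBD30LPS.

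Igf2 was 2.68, 1.24 and 1.51 CPM in CtrlVeh and 2.71, 3.97, 2.61 and 2.27 in GWVeh, with 1 control library inside the exposed range. The log2 difference was 0.69 ± 0.32 with an interval of 0.05 to 1.34 (adjusted p = 0.544). After LPS it was 1.04, 2.81 and 3.10 in CtrlVehLPS and 1.89, 1.69, 2.25 and 2.08 in GWVehLPS. All 4 GWVehLPS libraries were below all 4 GWVeh libraries, at -0.55 ± 0.29 (adjusted p = 0.52). The share of all genes that separate so was not counted. The lowest CtrlVehLPS value, 1.04, belongs to the library low in cerebellar transcripts. In the CBD arm Igf2 was 2.65, 2.77, 3.12 and 1.87 in GWCBD30 and 1.98, 1.22, 2.29 and 3.00 in GWCBD30LPS, which overlapped.

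Igf1r, the receptor of both ligands, was called in no comparison, where 0% to 3.52% of all genes were. Its means ran from 74.7 ± 0.929 CPM (n = 3) in CtrlVeh to 82.1 ± 8.45 (n = 4) in GWVehLPS, a spread about the size of the SD within GWVehLPS. In controls the 3 LPS libraries (75.9 to 84.2 CPM) lay above the 3 PBS libraries (73.6 to 75.2), and the difference was not called. Here too the share of all genes that separate was not counted. The LPS difference of Igf1r under CBD minus that under vehicle was -0.22 ± 0.10 (unadjusted p 0.0439, adjusted p = 0.856).

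The 5 other binding proteins, which bind IGFs tightly, were called in none of the 12 comparisons, where 0% to 3.52% of all genes were. Igfbp2 ranged from 29.9 ± 7.0 CPM (n = 3) in CtrlVeh to 37.9 ± 4.85 (n = 4) in GWVeh. Igfbp3 ranged from 9.70 ± 0.573 (n = 3) in CtrlVeh to 11.4 ± 1.57 (n = 4) in GWVehLPS, and its CtrlVehLPS libraries (10.7 to 11.6) lay above its CtrlVeh libraries (9.04 to 10.1). Igfbp4, whose cleavage frees IGF, ranged from 51.3 ± 3.76 (n = 4) in GWCBD30 to 60.8 ± 7.07 (n = 4) in GWVehLPS. Its CtrlVehLPS libraries had 72.9, 49.6 and 49.3 CPM, the first being the library low in cerebellar transcripts. Igfbp5 ranged from 187.7 ± 17.4 (n = 4) in GWCBD30 to 213.0 ± 11.3 (n = 4) in GWCBD30LPS. Its GWVehLPS libraries (208.9 to 216.1) lay above its CtrlVehLPS libraries (191.6 to 205.0), and the difference was not called. Igfbp6 stayed between 19.0 and 20.8 CPM in all 6 group means, and its CtrlVehLPS libraries had 25.4, 19.0 and 18.1. For each of the 8 genes other than Igfbp7, every pair of groups next to each other in the order of means had overlapping ranges. Groups farther apart in that order separated for Igf1, Igf2, Igf1r, Igfbp3 and Igfbp5, in comparisons that were not called. How often groups this small separate over all genes was not counted.

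The share of Igfbp7 in the binding protein pool followed its level. It was 8.60% ± 1.20 (SD, n = 3) of the summed length-scaled binding protein level in CtrlVeh and 14.0% ± 1.52 (n = 3) in CtrlVehLPS. It was 9.08% ± 1.23 (n = 4) in GWVeh and 15.2% ± 1.78 (n = 4) in GWVehLPS. With CBD it was 8.87% ± 1.29 (n = 4) without LPS and 9.46% ± 0.604 (n = 4) with it. Igfbp5 made up 32.7% to 37.4% in every group mean. These shares are descriptions, with no test of their own.

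Igfbp7 is a vessel-wall gene, so cell type markers were read beside it. In whole brain, fewer cells of a type and less RNA per cell cannot be told apart. All 10 endothelial markers were detected in every library. Their summed level was 114 to 131 CPM in CtrlVeh and 115 to 130 in CtrlVehLPS, and 0 of 10 were called there. It was 111 to 128 in GWVeh and 135 to 158 in GWVehLPS, with 2 of 10 called higher, the junction protein gene Pecam1 (0.69) and the transporter gene Slco1a4 (0.37). It was 108 to 130 in GWCBD30 and 118 to 126 in GWCBD30LPS, with 0 of 10 called. Under LPS, 2 of 10 were lower with CBD, Cldn5 (-0.59), a tight junction gene, and Pecam1 (-0.82). In controls, then, Igfbp7 was higher after LPS while the endothelial sums overlapped. Among exposed vehicle mice the sums were higher with LPS, as Igfbp7 was, with no overlap, and their part in the result was not tested beyond the covariate values above. Of 10 pericyte markers 0 were called in those 4 comparisons, and the sums lay between 133 and 161 CPM in all groups.

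Per 100 CPM of endothelial markers, Igfbp7 was 7.74 ± 1.31 CPM (n = 3) in CtrlVeh and 13.7 ± 0.376 (n = 3) in CtrlVehLPS. It was 9.15 ± 1.90 (n = 4) in GWVeh and 13.3 ± 2.24 (n = 4) in GWVehLPS. It was 7.88 ± 1.20 (n = 4) in GWCBD30 and 8.92 ± 0.947 (n = 4) in GWCBD30LPS. The means of the LPS groups without CBD were above the other means on this scale, and the separation seen in CPM was partly lost: GWVehLPS libraries began at 11.3 and GWVeh libraries reached 11.6. CtrlVehLPS libraries (13.4 to 14.2) lay above CtrlVeh libraries (6.47 to 9.09). Under LPS, GWCBD30LPS libraries (7.81 to 10.1) lay below GWVehLPS libraries (11.3 to 16.3).

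Summed microglial markers stood higher in the LPS group of each arm, with no overlap. All 10 were detected in every library. Their sum was 224 to 233 CPM in CtrlVeh and 339 to 351 in CtrlVehLPS, with 7 of 10 called higher. It was 216 to 243 in GWVeh and 298 to 384 in GWVehLPS, with 8 of 10 higher. It was 227 to 251 in GWCBD30 and 270 to 295 in GWCBD30LPS, with 0 of 10 called, and 2 of 10 were lower with CBD under LPS, Tmem119 (-0.37) and Olfml3 (-0.81). Per 100 CPM of microglial markers, Igfbp7 was 4.10 ± 0.690 CPM (n = 3) in CtrlVeh and 4.96 ± 0.393 (n = 3) in CtrlVehLPS, with libraries of 3.30 to 4.5 and 4.55 to 5.33. It was 4.73 ± 1.05 (n = 4) in GWVeh and 5.61 ± 1.10 (n = 4) in GWVehLPS, where the libraries overlapped (3.96 to 6.20 and 4.40 to 6.76). It was 4.02 ± 0.762 (n = 4) in GWCBD30 and 3.82 ± 0.479 (n = 4) in GWCBD30LPS. Under LPS, GWCBD30LPS libraries (3.25 to 4.31) lay below GWVehLPS libraries (4.40 to 6.76). The LPS differences were thus smaller on this scale than in CPM. Their part in the result was not tested. Of 7 astrocyte markers, 1 was higher in controls (Fgfr3, 0.32), 1 in exposed vehicle mice (Slc1a3, 0.25) and 0 in the CBD arm. In controls, 5 of 10 olfactory bulb markers were also higher with LPS (Scgn, Th, Shisa3, Dlx5 and Meis2), with sums of 123 to 136 CPM in CtrlVeh and 184 to 316 in CtrlVehLPS. These sums were also 179 CPM in GWVehLPS replicate 2, 193 in GWVehLPS replicate 3 and 183 in GWCBD30LPS replicate 4. They were 134 to 138 in the remaining libraries of GWVehLPS and GWCBD30LPS, and at most 151 in any PBS library. Whether they reflect the tissue taken or LPS was not tested.

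**Figure D4:**
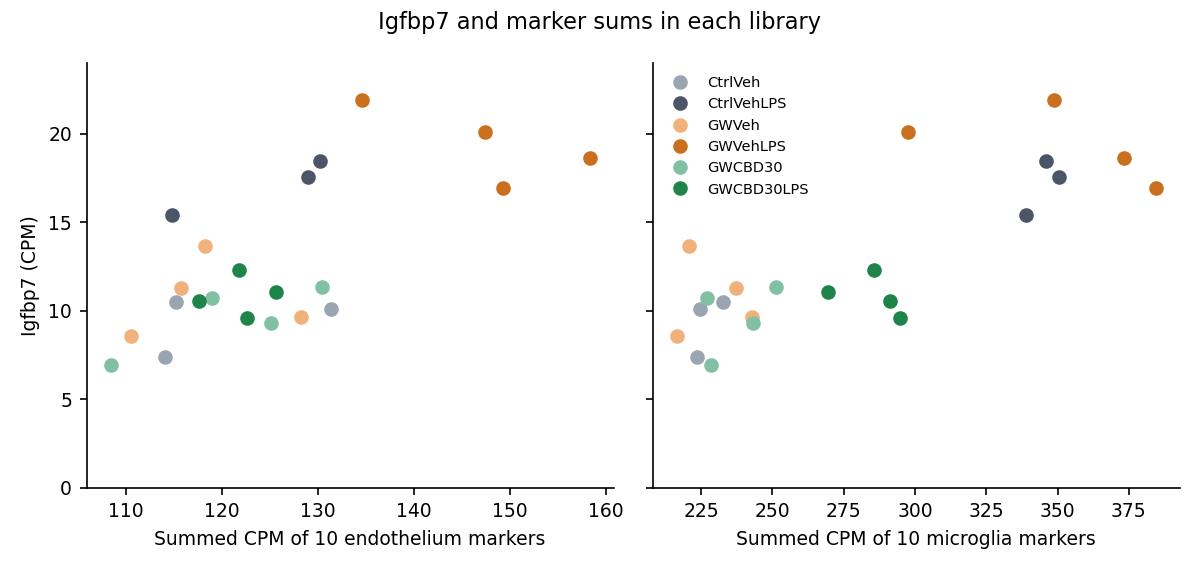
Igfbp7 CPM against the summed CPM of 10 endothelial markers (left) and 10 microglial markers (right), 1 point per library, coloured by group. The CtrlVehLPS points lie above the CtrlVeh points at similar endothelial sums (115 to 130 against 114 to 131 CPM), while the GWVehLPS points are also farthest right, and all LPS points lie right of the PBS points on the microglial axis.

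The rest of the pathway was read from a list. Of 41 listed genes for other receptors, proteases, adaptors, kinases, forkhead factors, growth hormone signalling and Igf2 mRNA binding, 37 passed the count filter. Igfbp1, the liver binding protein, had 0 to 7 counts and was not tested, nor were Igfals, Gh and Igf2bp1. In controls, 0 of 37 were called for LPS, where 0.494% of all genes were, and Htra1, a secreted protease that cuts IGF binding proteins, had the smallest p (0.25, adjusted p = 0.205). Averaged over arms, Htra1 was the 1 gene of 37 called, where 3.52% of all genes were, so the count is no more than the background gives. It was higher by 0.19 ± 0.05 (adjusted p = 0.013), and by 0.21 ± 0.05 (adjusted p = 0.00532) without CtrlVehLPS replicate 1. It was 123.9 ± 8.02 CPM (n = 3) in CtrlVeh, 147.5 ± 8.77 (n = 3) in CtrlVehLPS, 134.7 ± 16.1 (n = 4) in GWVeh, 151.3 ± 12.5 (n = 4) in GWVehLPS, 118.9 ± 11.5 (n = 4) in GWCBD30 and 132.6 ± 4.28 (n = 4) in GWCBD30LPS. That call was lost in 1 of 33 alternatives, with endothelial and pericyte scores as covariates (adjusted p = 0.0883, range 0.000178 to 0.0883).

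In exposed vehicle mice, Pik3ca, the catalytic subunit of the PI3K that IGF1R recruits, was the 1 of 37 called with LPS, where 0.939% of all genes were. It stood at 74.8 ± 2.53 CPM (n = 4) in GWVeh and 87.8 ± 3.71 (n = 4) in GWVehLPS, a difference of 0.23 ± 0.06 (adjusted p = 0.0474). That call was lost in 14 of 21 alternatives, where the adjusted p ran from 0.00908 to 0.299 over all 21, and in controls Pik3ca was 82.5 ± 3.77 (n = 3) and 82.3 ± 6.02 (n = 3). In the CBD arm 0 of 37 were called, where 0.00499% of all genes were. Insrr, the insulin receptor-related receptor, had the smallest p there (-1.01, adjusted p = 0.497). In the exposure comparisons 0 of 37 were called, where 0% of all genes were without LPS, 0.00499% with LPS and 0.03% on average. The smallest p was at Irs4 without LPS (1.19, adjusted p = 0.453) and at Igf2bp2 with LPS (-1.96, adjusted p = 0.461) and on average (-1.42, adjusted p = 0.553). In the CBD comparisons 0 of 37 were called, where 0% of all genes were without LPS, 0.24% with LPS and 0% on average. The smallest p was at Pdpk1 without LPS (0.13, adjusted p = 0.752), Akt2 with LPS (-0.18, adjusted p = 0.393) and Htra1 on average (-0.18, adjusted p = 0.288). Both interactions called 0 of 37, where 0% of all genes were called for exposure by LPS and 0.0449% for CBD by LPS. Pik3ca was first in each (0.23, adjusted p = 0.482, and -0.18, adjusted p = 0.843). Counts of 0 are what these background shares give.

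The genes whose log2 CPM followed each of the 9 most closely over the 22 libraries are given as a description, since libraries share groups, depth and tissue make-up. For Igfbp7 these were Idh2, a mitochondrial enzyme gene (r = 0.93), C1qa, a complement gene of microglia (r = 0.92), and Tagln2, an actin-binding protein gene (r = 0.90). After subtraction of group means the values were 0.72, 0.62 and 0.82. With the microglial marker score, the mean log2 CPM of that list, Igfbp7 had r = 0.75, and -0.26 after that subtraction. The same pairs of values were 0.69 and 0.58 for astrocytes and 0.64 and 0.38 for endothelium. They were 0.27 and 0.05 for pericytes and -0.45 and -0.63 for smooth muscle. Other lists are not given here. For Igfbp2 they were Pth1r (0.89), Bcan (0.85), a brain matrix proteoglycan gene, and Wscd1 (0.84). For Igfbp5 they were Agap1 (0.83), Itpkb (0.82) and En1 (0.82), a midbrain and hindbrain homeobox gene. Igfbp6 went with Snrpd2 (0.83) and the ribosomal protein genes Rps29 (0.81) and Rpl31 (0.80), and Igfbp4 with Cpe (0.83), Clta (0.82) and Nop16 (0.81). The remaining genes had looser company. For Igf2 it was Pnpla6 (0.81), Plxnb3 (0.77) and Dnph1 (0.75). For Igf1r it was Arid2 (0.76), Gm13421 (0.76) and Pik3cb (0.73). For Igf1 it was Coq10b (0.75), ENSMUSG00000120544 (0.71) and Gpbp1l1 (0.71), and for Igfbp3 it was Mtrr (0.71), Gm17399 (0.70) and Sds (0.69).

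No gene of the 9 was among the 3 closest to another. The highest r between members was 0.57, for Igfbp4 and Igfbp6, and 0.72 after subtraction of group means. Both genes were highest in the CtrlVehLPS library low in cerebellar transcripts. Igfbp5 and Igfbp7 had r = 0.50 and the neighbours Igfbp2 and Igfbp5 r = 0.45. The lowest values were for Igf1 with Igfbp2 (r = -0.55) and Igf1 with Igf2 (r = -0.52). CtrlVehLPS replicate 1 held both the highest Igf1 and the lowest Igf2 value, and r was not computed without it.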

How the data were processed

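Whole-brain poly(A) RNA (RNA integrity number of at least 8.5) was sequenced as stranded paired-end 150 bp libraries, per the labels' protocols, and aligned to GRCm38 (mm10), per the submitters' processing notes. The deposited table holds raw read counts per gene. Aligner, counter, strand setting and annotation: not given in the sources used here.

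The model used edgeR 4.0.16 under R 4.3.3, with filterByExpr by group (20026 genes), TMM scaling, and a robust quasi-likelihood fit of 6 group means to all 22 libraries (16 residual degrees of freedom). Two-sided p-values were adjusted over all genes tested by Benjamini and Hochberg's method. The SE is the log2 fold change divided by the root of F. CPM uses TMM-scaled library sizes. DESeq2 1.42.0 and limma 3.58.1 were alternatives, with other scalings, filters, covariates and single libraries left out. The limma fit used voom with quality weights per library and is called limma voom here. P-values measure the spread between these libraries. The 30 within-group pairs differed by more than sampling noise (chi-square per gene 4.08 or more).

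The members and lists were chosen with earlier results of these data known. All 9 members are named, pathway genes where called or, if none was, by the smallest p, and 3 genes of highest Pearson r per member (log2 CPM, prior count 2).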

Additional observations from a re-analysis of the deposited data

Results flagged for a closer look

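Igf1 in GWCBD30LPS replicate 2 stood apart from its group. It was 9.43 CPM there against 7.45 to 7.74 in the other 3 libraries of the group, a gap of 0.853 of the group's range which is above Dixon's 95% critical value for 4 samples. This was 1 of 36 groups of 4 libraries looked at over the 9 genes, and chance flags about 1 in 20. The Igf2 value of the same library, 1.22 CPM, was the lowest of its group.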

How the results depend on the processing

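The Igfbp7 difference for LPS averaged over arms was called in all 33 alternatives (0.56 to 0.71). LPS in controls was called in 16 of 18: 0 of the 9 genes were called with covariates for olfactory bulb and cerebellar markers, and 0 to 1 with single libraries left out, 0 without CtrlVeh replicate 2. LPS in exposed vehicle mice was called in 20 of 21, and CBD under LPS in 20 of 21 (-0.90 to -0.68), each with 0 genes called with endothelial and pericyte scores as covariates (added after seeing the data). There the cause was not tested.

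For CBD averaged over LPS states, 1 gene (Igfbp7) was called with no count filter, at an adjusted p of 0.1, with DESeq2, with limma voom, with olfactory bulb and cerebellar covariates, and without the CtrlVehLPS library low in cerebellar transcripts (adjusted p = 0.049, added after seeing the data). With single libraries left out it was 0 to 1, the call being made without GWVeh replicate 4 (adjusted p = 0.012) or GWCBD30 replicate 1 (adjusted p = 0.0366). The cause was not tested. The exposure by LPS value of Igfbp7, which was not called, ran from -0.13 to 0.11 with single libraries left out and changed sign without CtrlVeh replicate 2 (0.11), CtrlVehLPS replicate 3 (0.02), GWVeh replicate 1 (0.10) and GWVehLPS replicate 2 (0.03).

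With the replicate number as a block, CBD averaged over LPS states called 1 gene (Igfbp7, -0.50, adjusted p = 0.0145), and no other count of called genes among the 9 changed. The numbers share no stated source: r of deviations from group means over 51 same-number pairs ran from -0.50 to 0.56, with 20 over 0.1, and 5 of 22 libraries correlated best with their own number.

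Counts over all genes differed by over 1.5 times between tools: LPS in controls called 99 genes with edgeR, 260 with DESeq2 and 694 with limma voom, LPS in exposed vehicle mice 188, 312 and 293, CBD under LPS 48, 108 and 158, LPS averaged over arms 705, 1044 and 1463, exposure under LPS 1, 25 and 5, exposure averaged 6, 15 and 23, and the CBD by LPS difference 9, 24 and 42. None of 108 recomputed group levels moved by more than 1 SD with other scalings. Igf2 has the fewest counts, which limits what can be seen for it.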
